A study of Mus musculus with 6 samples.

Results

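The 37 genes described here encode chromatin and transcription regulators whose loss causes autism or intellectual disability, as loss of the kinase DYRK1A does. They were taken by name from a list of 37 symbols, and all 37 were found among the 33084 genes of the count table. All 37 also passed the filter on low counts, which left 19616 genes for testing. The members hold between 1.10% and 1.19% of the counts of a library.

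RNA of the whole forebrain was sequenced from 6 mouse embryos at embryonic day 15.5. The 3 controls are labelled wild type, and the 3 mutants carry the genotype Dyrk1a<DlxCre/+>, a conditional loss of the gene driven in cells of the Dlx5 domain. As background, Dlx5 marks GABAergic precursors and neurons of ventral origin, so the libraries also hold cells outside the domain, and a difference limited to it would be diluted. The genotype is written with 1 wild-type allele. The labels give neither litter nor sex, and they do not say whether the controls carry the Cre driver or the conditional allele, and an effect of either cannot be told apart from loss of Dyrk1a. The p-values measure the spread between these samples, and whether embryos of a genotype shared a litter is not known here.

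As background, chromatin regulators set which stretches of DNA can be transcribed. Some slide or evict nucleosomes with the energy of ATP, some write, erase or read methyl and acetyl groups on histone tails, and some methylate DNA itself. Most act in large complexes such as BAF (the mammalian SWI/SNF remodeller), the KMT2 complexes that methylate histone H3 at lysine K4, and Polycomb. Loss of 1 copy of many of these genes is enough to cause a developmental disorder of the brain, as it is for DYRK1A, and for that reason modest differences in dose are of interest.

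The libraries held between 24646616 and 38315004 counts. Dyrk1a stood at 169, 183 and 180 CPM (library-scaled counts, by TMM) in the controls and at 186, 159 and 182 CPM in the mutants, so the groups overlapped (log2 fold change -0.02 ± 0.09 SE; two-sided exact permutation test p = 0.90, where 0.10 is the smallest p that 3 against 3 allows). That count covers the whole gene and so does not check the genotype labels. Forebrain markers were present in every library: Neurod6 lay between 211 and 259 CPM and Gad2 between 110 and 137 CPM. Both replicate 3 libraries stood apart from the other 4. Their 8 proliferation markers summed to 1452 (control) and 1541 CPM (mutant) against 838 to 904 CPM in the others, and their 9 neuron markers to 5144 and 5217 CPM against 5704 to 6105 CPM. The red cell gene Hbb-y stood at 321 (control) and 322 CPM (mutant) in them, against 27.8 to 42.5 CPM in the others. Hbb-bs was lower in them, at 209 and 256 CPM against 304 to 354 CPM, so a sum of red cell genes mixes opposite differences. No marker list separated the genotypes in summed level: endothelial genes summed to 201 to 216 CPM in controls and 209 to 225 CPM in mutants, microglial genes to 43.2 to 56.4 and 43.7 to 56.9 CPM, meningeal fibroblast genes to 430 to 568 and 467 to 504 CPM, red cell genes to 571 to 731 and 597 to 808 CPM, and choroid plexus genes to 273 to 325 and 285 to 428 CPM. Radial glia genes summed to 1065 to 1378 CPM in controls and 1152 to 1422 CPM in mutants, and 6 of the 8 had a log2 fold change above 0. For Sox2 every mutant (72.4 to 110 CPM) lay above every control (58.9 to 71.1 CPM), which held for 3.19% of all tested genes. Control replicate 1 had the lowest sum of GABAergic lineage genes, 392 CPM against 449 to 474 CPM in the other libraries. Its cortical lineage sum was lowest too, at 629 CPM against 671 to 759 CPM. Its meningeal fibroblast sum was the highest, at 568 CPM against 430 to 504 CPM.

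The chromatin genes were expressed at moderate and even levels. Counts divided by exon length (RPKM, reads per kilobase of annotated exon, from CPM) put 28 of the 37 between 10 and 35 RPKM, with a median of 19.4. The highest were Smarca4, an ATPase of the BAF complex, at 91.2 ± 10.0 RPKM (SD, n = 6 libraries), Chd3, an ATPase of the NuRD remodelling complex, at 83.0 ± 9.22 RPKM, and Smarcc2, a BAF scaffold subunit, at 66.3 ± 5.97 RPKM. Nsd1, an H3K36 methyltransferase, followed at 44.9 ± 2.67 RPKM, its highest library below the lowest of Smarcc2. At the low end stood Asxl3, Hdac4, Kdm6b and Mbd5, at 7.97 ± 0.46, 7.01 ± 0.25, 6.44 ± 0.66 and 5.36 ± 0.46 RPKM, and Adnp at 0.80 ± 0.15 RPKM. In the order of levels, 31 of the 36 pairs of neighbours overlapped in their ranges over the 6 libraries, so the middle of the order is not resolved. The order also rests on the length used: per length of the longest transcript, an alternative added after the data were seen, Tcf4 moved from rank 5 to rank 1 and Auts2 from 18 to 5, and 9 genes moved by more than 5 ranks.

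**Figure D1:**
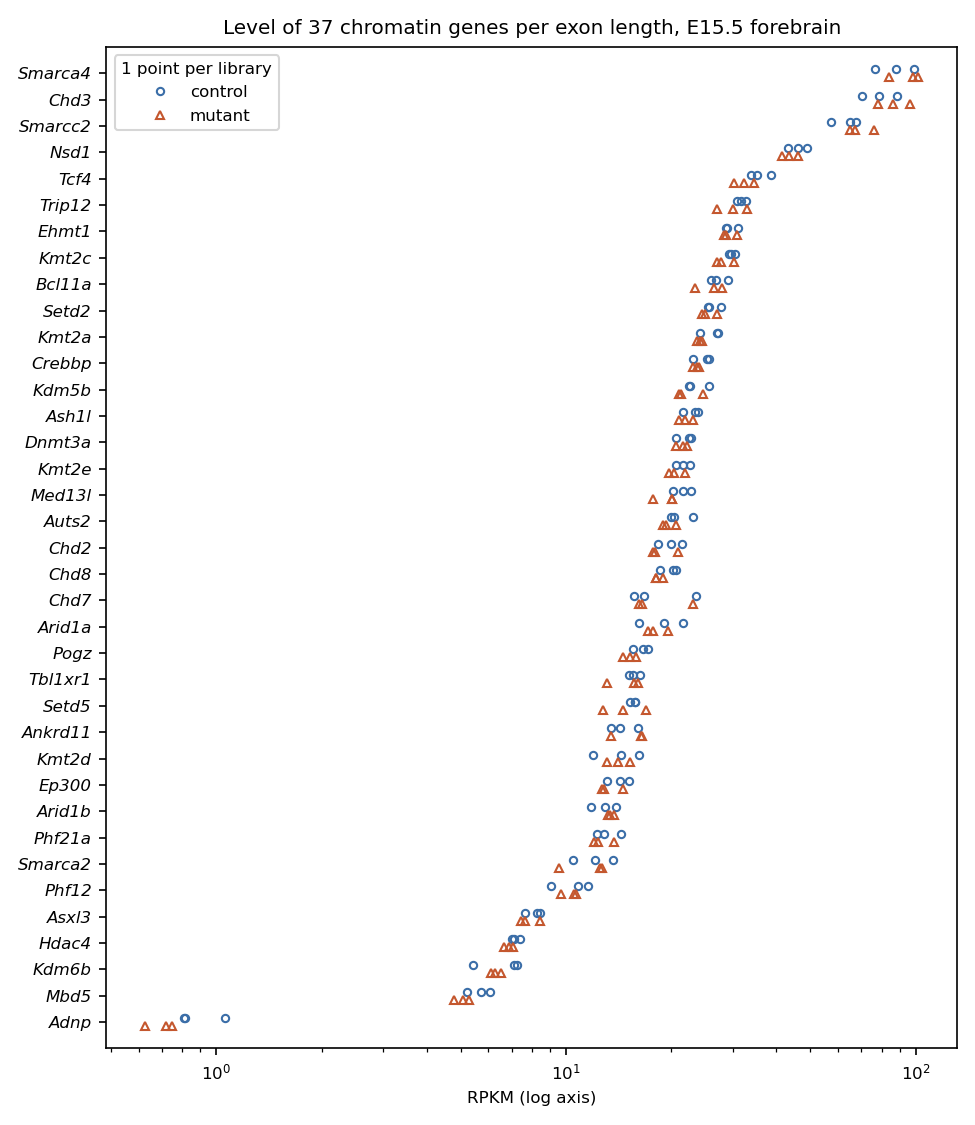
Level of each of the 37 chromatin genes in RPKM on a log axis, with 1 point per library (blue circles, 3 controls; orange triangles, 3 mutants), ordered by the mean over 6 libraries. Most genes lie between 10 and 35 RPKM, Smarca4, Chd3 and Smarcc2 lie above 50, Adnp lies near 1, and controls and mutants overlap for all but Adnp and Med13l.

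The design has a single contrast, mutant against control forebrain. Not 1 of the 37 chromatin genes passed the threshold of an adjusted p under 0.05 in edgeR's quasi-likelihood test (adjusted p = 0.9999 for each), and 0% of all tested genes did. At an unadjusted p under 0.05 there were 0 members, against 1.92% of all genes; DESeq2 and limma-voom also gave 0 members at either level. Every 95% interval held 0. The precision was high for this design: the standard error of the log2 fold change had a median of 0.09 over the members and 0.15 over all genes, and 35 of the 37 lay below the latter. For 34 members the interval kept the mutant level within 30% of the control level. The exceptions were Chd3, whose interval ran from -8.00% to 31.2%, Chd7, whose interval ran from -25.5% to 32.9%, and Adnp, whose interval ran from -40.8% to 2.33%.

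The fold changes were small and leaned to the lower side. Of the 37 members, 32 had a log2 fold change below 0 and 5 above, with a median of -0.07, beside a median of -0.01 and 47.5% above 0 over all tested genes. For 27 members the value was smaller than its own standard error. The number above 0 moved with single libraries. Leaving out control replicate 3 gave 13, leaving out mutant replicate 2 gave 10, and leaving out control replicate 2 or mutant replicate 1 gave 8. Leaving out control replicate 1 kept 32 below 0, and leaving out mutant replicate 3 gave 30 below 0, each with a median of -0.10. The lean was also present in long genes at large: of the 6182 tested genes whose longest transcript has at least 4000 bases, 33.7% were above 0, with a median of -0.04. The members are long, with a median longest transcript of 8481 bases against 3013 bases over all tested genes. Groups did not overlap in 2 members, Adnp and Med13l, in both of which every mutant lay below every control, which held for 3.70% of all genes. Every mutant lay above every control in 0 members and in 3.19% of all genes. Within replicates 1 and 2 the median of the members was -0.07, with 28 of the 37 below 0. Within replicate 3, which is 1 library per genotype, it was -0.04, with 29 below 0. In both, 22 members were below 0, and whether the signs agree beyond these counts was not tested. The same medians were -0.05 and -0.01 over the long genes and -0.01 and -0.01 over all tested genes. The shares of those genes below 0 within replicates were not counted.

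**Figure D2:**
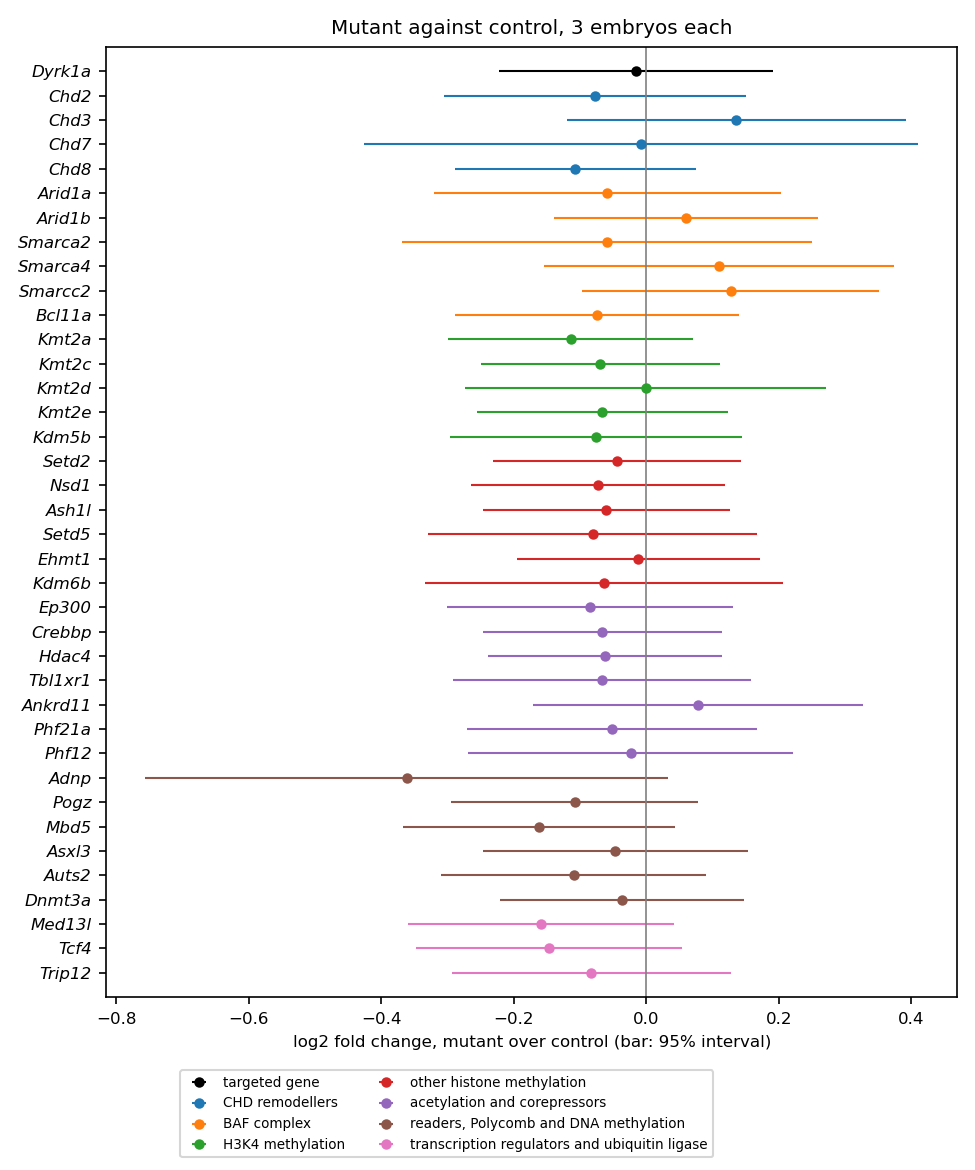
Log2 fold change, mutant over control, of Dyrk1a and the 37 chromatin genes from edgeR's quasi-likelihood fit (n = 3 embryos per genotype), with 95% intervals as bars and colours for the role of each gene. Every interval crosses 0, 32 of the 37 points lie to its left, Adnp has the lowest value (-0.36), and Chd7 and Adnp have the widest intervals.

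Among the 4 CHD remodellers, ATPases that slide nucleosomes, 1 lay above 0 and 3 below, and none passed the test. Chd8, whose product binds promoters of active genes and which is among the genes most often hit in autism, stood at 307, 335 and 340 CPM in the controls and 299, 313 and 299 CPM in the mutants (-0.11 ± 0.08, log2 fold change and SE). Only mutant replicate 2 reached into the range of the controls. Chd3 stood at 594, 665 and 745 CPM in the controls and 657, 815 and 728 CPM in the mutants (0.14 ± 0.11), the highest fold change of the 37, with mutant replicate 2 above every other library. Chd2, a remodeller linked to epilepsy, ranged from 262 to 308 CPM in controls and 254 to 299 CPM in mutants (-0.08 ± 0.10). Its exons share 18.4% of their length with 1810026B05Rik on the same strand, so its count is uncertain. Chd7, the gene of CHARGE syndrome (chr4:8690406-8867659, GRCm38), stood at 231, 216 and 325 CPM in the controls and 222, 228 and 318 CPM in the mutants (-0.01 ± 0.18). Replicate 3 was high in both genotypes and the other 4 libraries lay close together, and the interval of its fold change was the widest of the 37.

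The 6 genes of the BAF group divided evenly, with 3 above 0 and 3 below and a median of 0.00. Smarca4, encoding the ATPase BRG1 (chr9:21616169-21704230), stood at 496, 567 and 642 CPM in the controls and 544, 659 and 636 CPM in the mutants (0.11 ± 0.12). Smarcc2 stood at 318, 360 and 376 CPM against 360, 421 and 372 CPM (0.13 ± 0.10). In both genes control replicate 1 was lowest and mutant replicate 2 highest. Arid1b, a DNA-binding subunit and the gene most often mutated in Coffin-Siris syndrome, stood at 149, 175 and 162 CPM in controls and 166, 173 and 168 CPM in mutants (0.06 ± 0.09), the mutants all within the range of the controls. Arid1a, its paralog, ranged from 186 to 247 CPM and 197 to 225 CPM (-0.06 ± 0.12). Smarca2, encoding the alternative ATPase BRM (chr19:26605050-26778322), stood at 173, 194 and 149 CPM in controls and 179, 181 and 137 CPM in mutants (-0.06 ± 0.14), with both replicate 3 libraries lowest. Bcl11a, a zinc finger factor of cortical neurons that associates with BAF, ranged from 342 to 383 CPM and 308 to 368 CPM (-0.07 ± 0.09).

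All 5 genes of H3K4 methylation lay below 0, with a median of -0.07, and none passed. Kmt2a, a methyltransferase that maintains gene activity and the gene of Wiedemann-Steiner syndrome, stood at 402, 450 and 454 CPM in controls and 396, 409 and 403 CPM in mutants (-0.11 ± 0.08). Control replicate 1 lay among the mutants. Kmt2c, which acts at enhancers, stood at 602, 593 and 617 CPM against 564, 548 and 615 CPM (-0.07 ± 0.08). Kmt2d, its paralog and the main Kabuki syndrome gene, had means of 282 ± 42.0 and 282 ± 21.8 CPM (SD, n = 3 each; -0.00 ± 0.12). Kmt2e, a reader of H3K4 methylation, ranged from 215 to 237 CPM in controls and 206 to 229 CPM in mutants (-0.07 ± 0.08). Kdm5b, which removes the mark, ranged from 373 to 423 and 348 to 409 CPM (-0.08 ± 0.10).

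The 6 other genes of histone methylation all lay below 0 too, between -0.08 and -0.01, each by less than its standard error. These were Nsd1, the Sotos syndrome gene, at -0.07 ± 0.08, Ash1l, another H3K36 methyltransferase, at -0.06 ± 0.08, and Setd2, which places the trimethyl mark on H3K36, at -0.04 ± 0.08. Nsd1 stood at 804, 753 and 855 CPM in controls and 726, 760 and 807 CPM in mutants, with overlapping groups. Setd5, a SET domain gene of intellectual disability, stood at 279, 289 and 290 CPM in controls and at 267, 234 and 311 CPM in mutants (-0.08 ± 0.11). The controls were close together, while the mutants spanned a range on both sides of them. Ehmt1, an H3K9 methyltransferase and the Kleefstra syndrome gene, had 233, 235 and 252 CPM in controls and 233, 231 and 250 CPM in mutants (-0.01 ± 0.08), the closest agreement between genotypes in this group. Kdm6b, an H3K27 demethylase, was the second lowest member in CPM, at 37.8 to 50.4 CPM in controls and 42.5 to 45.4 CPM in mutants (-0.06 ± 0.12).

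Of the 7 genes of acetylation and corepression, 6 lay below 0 and 1 above, and none passed. The acetyltransferase genes of Rubinstein-Taybi syndrome were alike: Crebbp stood at 313, 348 and 343 CPM in controls and 321, 324 and 313 CPM in mutants (-0.07 ± 0.08). Ep300 stood at 187, 204 and 216 CPM against 181, 184 and 208 CPM (-0.09 ± 0.09). Hdac4, a class IIa deacetylase that shuttles between nucleus and cytoplasm, had the lowest relative spread of the 37, 3.54% of its mean over 6 libraries (CV, coefficient of variation of RPKM), and stood at 113 ± 2.96 and 109 ± 3.56 CPM (SD, n = 3 each). Of its exons, 22.4% overlap Gm26720 on the opposite strand, and how strand was treated in the counting was not given. Ankrd11, the KBG syndrome gene, whose product binds deacetylases, was the member above 0, at 223, 236 and 267 CPM in controls and 223, 271 and 273 CPM in mutants (0.08 ± 0.11). Tbl1xr1, a subunit of the NCoR corepressor, Phf21a, a reader in the CoREST complex, and Phf12, a SIN3 partner, had -0.07 ± 0.10, -0.05 ± 0.10 and -0.02 ± 0.11.

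The 6 genes of heterochromatin readers, Polycomb and DNA methylation had a median of -0.11, with all 6 below 0 and none past the threshold. Adnp, a homeobox protein that joins CHD4 and HP1 in a repressive complex (chr2:168180986-168207112, minus strand), stood at 4.35, 4.34 and 5.67 CPM in the controls and 4.01, 3.35 and 3.84 CPM in the mutants. Its log2 fold change was -0.36 ± 0.17 SE, the lowest of the 37, with an adjusted p of 0.9999 by the edgeR quasi-likelihood test after Benjamini-Hochberg adjustment. Every mutant lay below every control, the highest value was that of control replicate 3, and without that library the log2 fold change was -0.21. The count behind it may cover only part of the gene. Of its 5350 exon bases, 4393 (82.1%) are shared on the same strand with Gm20716, which was itself listed at 0 to 19 counts per library, and whether reads on shared bases were left out of both was not tested. Over the 957 bases not shared, the level would be 4.45 ± 0.82 RPKM. The level and the fold change of Adnp are therefore uncertain.

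DYRK1A has been found at promoters that hold a palindrome with the core CTCGCGAG, and the start regions of the members were searched for it. RefSeq promoters on GRCm38.p6, 250 bases before to 50 after each start, were at hand for 27 of the 37 genes, as 32 windows. The core, which reads the same on both strands, occurred in 1 of the 32 windows (3.12%), that of Adnp, and in 0.919% of the 32851 windows of all genes. It lies from 239 to 232 bases before the start of Adnp, at chr2:168207344-168207351. The 30 bases around it, chr2:168207333-168207362 on the minus strand, are shown as the only match among the members' windows, with the core in capitals.
Adnp: gcctccacgttCTCGCGAGagctcccctca
A match of these letters is a description and shows no binding, and the Adnp count is uncertain as given above. The windows of the members were rich in CpG: 29 of 32 held 10 or more CpG dinucleotides, with a median of 31.5, against 43.5% of all windows and a median of 7, which include those of non-coding genes. The 3 windows below 10 were 1 of the 2 windows of Mbd5 and of Phf21a, and that of Setd5. The core itself holds CpG, and its share among CpG-rich windows alone was not counted.

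Mbd5, a methyl-CpG-binding domain protein, stood at 112, 119 and 102 CPM in controls and 104, 94.0 and 99.9 CPM in mutants (-0.16 ± 0.09), with mutant replicate 1 above control replicate 3. Auts2, which turns a Polycomb complex to gene activation in neurons, stood at 457, 529 and 467 CPM against 472, 433 and 441 CPM (-0.11 ± 0.09). Pogz, a zinc finger partner of HP1, stood at 143, 158 and 153 CPM against 141, 135 and 146 CPM (-0.11 ± 0.08). In each of these genes 1 mutant library lay within the range of the controls. Asxl3, a cofactor of the histone H2A deubiquitinase BAP1, and Dnmt3a, which sets new DNA methylation, had -0.05 ± 0.09 and -0.04 ± 0.08.

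The 3 remaining genes act on transcription or protein turnover, and all 3 lay below 0. Med13l, a subunit of the Mediator kinase module (chr5:118560679-118765438), stood at 334, 351 and 313 CPM in the controls and 310, 309 and 274 CPM in the mutants. Every mutant was below every control. The log2 fold change was -0.16 ± 0.09 SE, with an adjusted p of 0.9999 by the edgeR quasi-likelihood test after Benjamini-Hochberg adjustment. Tcf4, the bHLH factor of Pitt-Hopkins syndrome and the member with the highest CPM, stood at 961, 1056 and 925 CPM against 943, 826 and 887 CPM (-0.15 ± 0.09). Trip12, a ubiquitin ligase, stood at 527, 511 and 545 CPM against 498, 449 and 548 CPM (-0.08 ± 0.09), with mutant replicate 3 the highest of the 6 libraries.

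**Figure D3:**
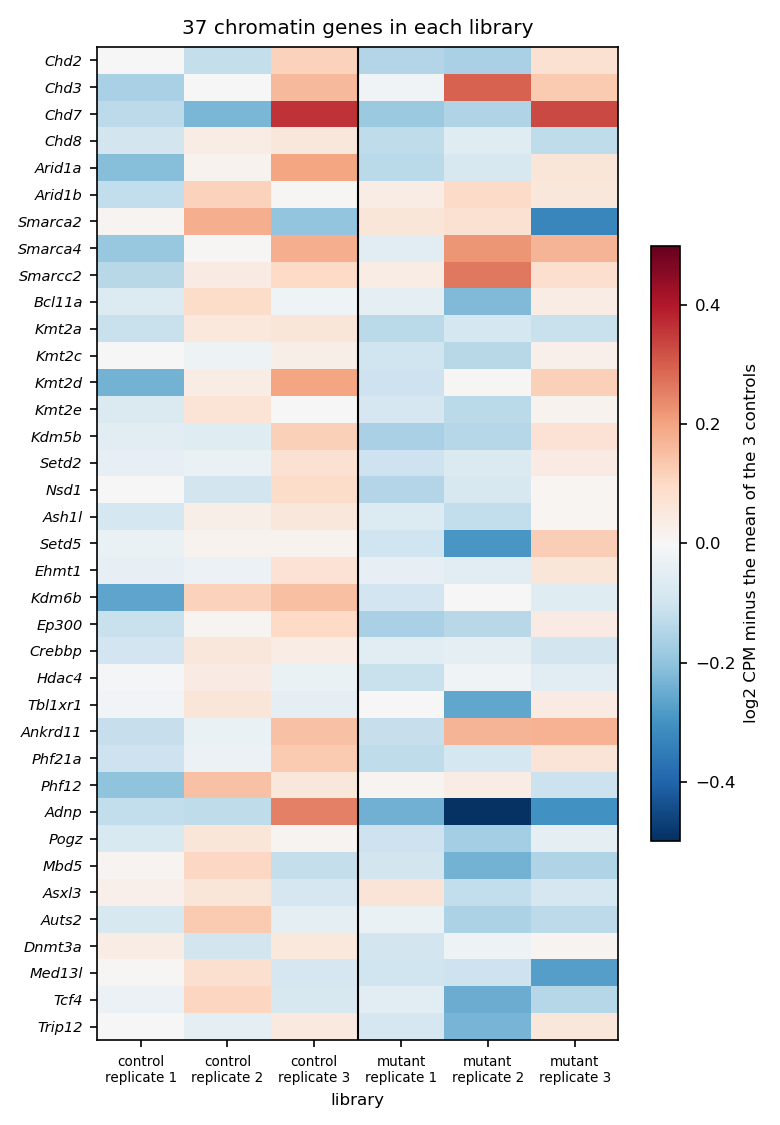
Log2 CPM of the 37 chromatin genes in each of the 6 libraries, relative to the mean of the 3 controls (red above, blue below; the scale ends at 0.5 in each direction). Chd7 is high in both replicate 3 libraries, Smarca2 is low in both, and mutant replicate 2 is high for Chd3, Smarca4 and Smarcc2 and low for Setd5, Tbl1xr1, Tcf4 and Adnp.

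Fold change and GC content of the transcript were related among the members. The 5 members above 0 (Chd3, Smarcc2, Smarca4, Ankrd11 and Arid1b) had a GC content of 56.1%, 54.3%, 55.9%, 54.7% and 52.9%, against a median of 50.9% over the 37. Of the 17 members under 50% GC, 0 lay above 0. Across the 37 genes Spearman's rho between GC content and fold change was 0.51, and in the 6182 long genes it was 0.30; genes measured in the same 6 libraries are not independent replicates, and all points share their library and depth. The libraries differed in this. Relative to the control mean, in mutant replicate 2 the members under 47% GC had a median of -0.18 and those at 53% or more had 0.04. In mutant replicate 3 these medians were 0.01 and 0.08, and in mutant replicate 1 they were -0.08 and -0.05. The members at 47 to 50% and 50 to 53% GC had -0.13 and -0.10 in mutant replicate 1. The controls differed among themselves too. At 53% GC or more, every member was below the control mean in control replicate 1, with Smarca4 at -0.19. In control replicate 3 all of them but Auts2 (-0.05) were above it, with Smarca4 at 0.18. The members under 47% GC had both signs in each of these control libraries. A trend on GC content and length was then removed from each library by offsets. This removal is built to bring rho toward 0, and whether GC content lies behind the lean was not tested. With the offsets rho was -0.00, the median of the members was -0.03, and 9 of the 37 lay above 0. Under those offsets Tcf4 went from -0.15 to -0.04, Trip12 from -0.08 to -0.01 and Tbl1xr1 from -0.07 to -0.00. Med13l at -0.13 and Adnp at -0.35 moved less, and Kdm6b, the member of highest GC content, went from -0.06 to -0.15.

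**Figure D4:**
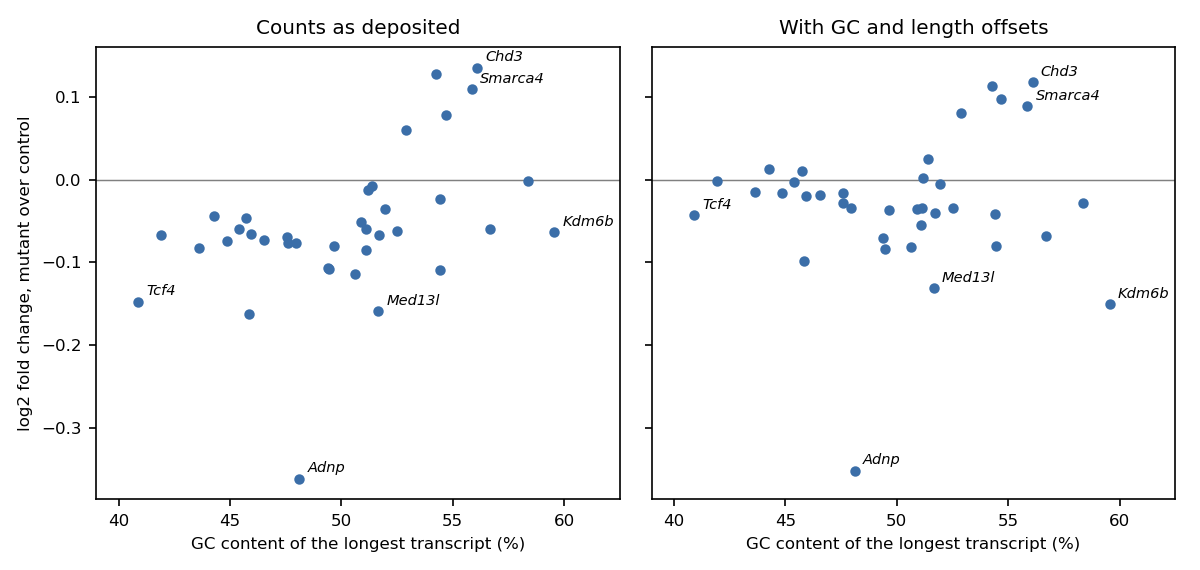
Log2 fold change, mutant over control, of the 37 chromatin genes against the GC content of the longest transcript, from the counts as deposited (left) and with GC and length offsets (right). On the left the 5 genes above 0 all lie above 52% GC; on the right genes of low GC content lie nearer to 0, while Adnp stays at -0.35.

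Several of the 37 genes differed between replicates in the same way in both genotypes. In replicate 3, relative to the mean of replicates 1 and 2 of the same genotype, 21 members were higher in both genotypes and 4 lower in both, with medians of 0.08 (controls) and 0.09 (mutants) in log2 CPM. These are 56.8% and 10.8% of the members, beside 32.6% and 31.1% of all tested genes, and 4855 and 3899 of the 13114 genes within the members' range of CPM. The same difference was 0.73 and 0.73 for the proliferation markers, 0.47 and 0.47 for radial glia markers and -0.34 and -0.32 for neuron markers; the part of these cell types in the members' differences was not tested, and in whole tissue a change in cell number cannot be told apart from a change in RNA per cell. Chd7 differed most, at 0.54 and 0.50. Arid1a, at 0.30 and 0.17, and Kmt2d, at 0.30 and 0.17, were higher as well, as were Kdm5b, at 0.18 and 0.22, and Chd2, at 0.17 and 0.23. Smarca2 was lower, at -0.30 and -0.40, as were Med13l, at -0.13 and -0.18, Asxl3, at -0.13 and -0.05, and Auts2, at -0.07 and -0.04. Genes such as Ehmt1 (0.11 and 0.11), Dnmt3a (0.08 and 0.07) and Ash1l (0.09 and 0.11) lay close to the medians of the members and shifted by like amounts in both genotypes.

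**Figure D5:**
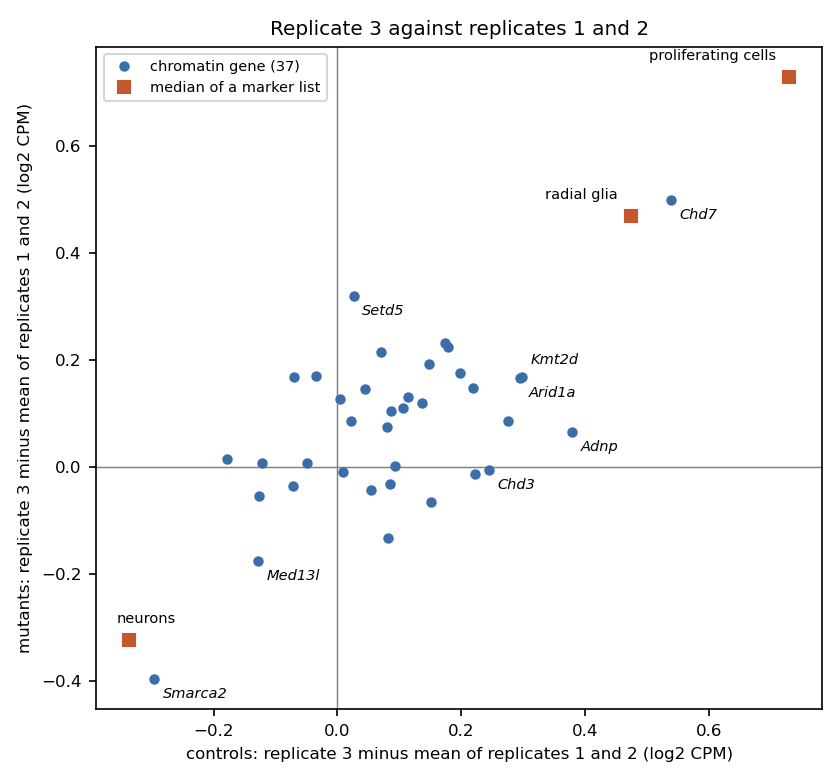
Replicate 3 minus the mean of replicates 1 and 2 in log2 CPM, controls on the horizontal and mutants on the vertical axis, for the 37 chromatin genes (blue) and for the medians of 3 marker lists (orange squares). Chd7 (0.54 and 0.50) lies beside the radial glia median, Smarca2 (-0.30 and -0.40) lies beside the neuron median, and most genes lie between -0.2 and 0.3 on both axes.

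Levels per length were also compared between related genes. The ATPase Smarca2 was below Smarca4 in every library, with a log2 ratio of RPKM of -2.66, -2.69 and -3.24 in the controls and -2.75, -3.01 and -3.36 in the mutants. The ratio was lowest in the replicate 3 libraries of both genotypes. The mean was -2.86 ± 0.33 in controls and -3.04 ± 0.31 in mutants (SD, n = 3 each), a difference smaller than the spread. Per longest transcript the mean ratio over 6 libraries was -1.70 in place of -2.95, so the size of the gap rests on the gene models while the direction does not. Kmt2c exceeded Kmt2d by 1.04 ± 0.15 (SD, n = 6), Arid1a exceeded Arid1b by 0.49 ± 0.14, Kmt2a exceeded Kmt2b by 1.11 ± 0.11, and Ep300 was below Crebbp by a log2 ratio of -0.81 ± 0.09, each in the same direction in all 6 libraries. Chd7 and Chd8 changed order: their log2 ratio was above 0 in both replicate 3 libraries (0.19 and 0.35) and below 0 in the other 4, between -0.37 and -0.15, per annotated exon length. That order rests on the gene models, since per longest transcript the log2 ratio was below 0 in all 6 libraries, from -0.90 to -0.18, with a mean of -0.58 in place of -0.06. Chd3 and its paralog Chd4, which each encode an ATPase of NuRD, were near equal, at 0.08 ± 0.14.

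Genes outside the list, from the same complexes or from other neurodevelopmental chromatin and transcription genes, were also without a call. In 7 lists holding 208 genes, 207 were tested, and 0 passed in either direction in edgeR's quasi-likelihood test; 0 had an unadjusted p under 0.05. Of these, 86 lay above 0 and 121 below, with a median of -0.03, which was 0.02 without control replicate 3. Other BAF subunits had 12 of 24 above 0 (median -0.01), other CHD, NuRD and ISWI genes 11 of 25 (-0.03), and other H3K4 methylation genes 10 of 17 (0.01). Other histone methylation genes had 7 of 24 above 0 (-0.05), other acetylation and corepressor genes 17 of 32 (0.01), and Polycomb and DNA methylation genes 18 of 39 (-0.01). Other neurodevelopmental chromatin and transcription genes had 11 of 46 above 0 (-0.06). The genes with the smallest p in a list were Dpf3 at -0.17 ± 0.11 and Bcl11b at 0.15 ± 0.10 (BAF), and Mbd2 at 0.17 ± 0.11 and Baz2a at -0.12 ± 0.09 (CHD, NuRD and ISWI). They were Ncoa6 at -0.17 ± 0.08 and Cxxc1 at 0.16 ± 0.09 (H3K4), and Ehmt2 at 0.16 ± 0.09 and Phf8 at -0.12 ± 0.09 (other histone methylation). They were Hdac9 at -0.21 ± 0.11 and Rcor2 at 0.22 ± 0.13 (acetylation and corepressors), and Nfia at -0.17 ± 0.10 and Satb1 at -0.16 ± 0.11 (other neurodevelopmental genes). None of these values passed.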

How the data were processed

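Per the series' design text and the submitters' processing notes, libraries were made from total RNA with ribosomal RNA removed and strand marked by dUTP, read single-end, and processed with bcl2fastq 2.17.1.14, HISAT2 on GRCm38, SAMtools 1.9 and HTSeq 0.9.1. The molecule field says polyA RNA. The HISAT2 version, and the way HTSeq treated strand and overlapping genes, were not given in these sources. The authors deposited unnormalized read counts for each gene and library.

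Symbols, coordinates, exon lengths and GC content (longest transcript) came from GENCODE M21 on GRCm38, which named 32888 of the 33084 identifiers. Counts were tested with edgeR 4.0.16 in R 4.3.3: filterByExpr (minimum count 10, minimum total 15), TMM scaling, a robust quasi-likelihood fit over all 6 libraries without covariates, and Benjamini-Hochberg adjustment over 19616 genes at 0.05. A standard error is the size of the log2 fold change over the square root of F. CPM values are TMM-scaled; log2 CPM used a prior count of 2; RPKM used the union of annotated exons. The script was tested on simulated data. The lowest count of a member in a library was 85 reads, for Adnp.

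Alternatives were RLE and upper quartile scaling, no filter, DESeq2 1.42.0, limma-voom (limma 3.58.1) with and without sample weights, a replicate block, a replicate 3 term, replicates 1 and 2 alone, GC and length offsets (splines fitted per library), each library left out, and length of the longest transcript. The members and gene lists were chosen with earlier results of these data known. Named genes are Dyrk1a, all 37 members, the paralogs Kmt2b and Chd4 and the H3K4 demethylase gene Kdm5c, marker genes given as a check of tissue, and, of each of 7 other chromatin lists, the 2 genes with the smallest p, of which some are not reported here. Exons of 16 members overlap another gene of the table, 13 on the opposite strand and 4 on their own, so their counts are uncertain in the shared bases.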

Additional observations from a re-analysis of the deposited data

How the results depend on the processing

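Over 17 alternative fits, 0 of the 37 members and 0 of the other chromatin genes passed in any of them. Among all genes, 3 passed with only the 4 libraries of replicates 1 and 2 and 0 in the other fits. An unadjusted p under 0.05 was reached by up to 4 of the 37 members, under GC and length offsets with the replicate block. In that fit 1040 of the 19616 tested genes reached it. The median of the members stayed below 0 throughout, from -0.10 to -0.03. The number of members above 0, 5 in the fit reported, was 9 with sample weights, with replicates 1 and 2 alone and under the GC and length offsets with or without the block, and ran from 5 to 13 when 1 library was left out: 8 when control 2 or mutant 1 was dropped, 10 when mutant 2 was and 13 when control 3 was. The values of 25 members kept their sign in all 17 fits, and 48 of 646 values, Dyrk1a included, had the opposite sign, none past the threshold.

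Replicate numbers are shared between the genotypes, but the labels do not say that a number marks a litter or batch. Deviations from the group means correlated at 0.24, 0.07 and 0.36 for replicates 1, 2 and 3, and control replicate 2 correlated best with mutant replicate 1 (0.35), so the numbers were not taken as pairs. Over the 37 members alone these correlations were 0.45, 0.31 and 0.60, and 0.54 for control replicate 2 with mutant replicate 1. With the replicate block 0 genes passed and the median of the members was -0.07.

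Opposite signs were as follows. Kmt2d: 0.0026 (RLE), 0.0026 (DESeq2), 0.0065 (limma-voom), 0.090 (sample weights), 0.0069 (replicate block), 0.0035 (replicate 3 term) and 0.051 (replicates 1 and 2), and -0.11 to 0.11 leaving out 1 library. Sample weights also gave Dyrk1a 0.047, Arid1a 0.033, Kdm6b 0.082 and Phf12 0.11. Replicates 1 and 2 alone gave Chd7 0.015, Kdm6b 0.022 and Phf12 0.050. The offsets gave, without and with the block, Dyrk1a 0.011 and 0.0088, Chd7 0.025 and 0.023, Setd2 0.012 and 0.013, Ehmt1 0.0015 and 2.3e-05, and Asxl3 0.011 and 0.011. Leaving out 1 library gave these ranges. Dyrk1a -0.053 to 0.0516, Chd7 -0.19 to 0.204, Arid1a -0.16 to 0.0535, Smarca2 -0.14 to 0.0643, Setd2 -0.086 to 0.00291, Setd5 -0.19 to 0.015, Ehmt1 -0.047 to 0.0324, Kdm6b -0.19 to 0.0202, Tbl1xr1 -0.12 to 0.0199, Phf21a -0.11 to 0.0257 and Phf12 -0.12 to 0.0513. The cause of these changes was not tested. Per longest transcript the 7 mean paralog ratios kept their sign, but Chd7 over Chd8 in replicate 3 went from 0.19 to -0.33 (control) and from 0.35 to -0.18 (mutant).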

Other observations

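Chromatin and transcription genes outside the list of 37 also differed between replicates. Relative to replicates 1 and 2 of their genotype, the replicate 3 libraries were higher in both genotypes for 112 of 207 tested genes of the 7 other lists and lower in both for 32, or 54.1% and 15.5%, beside 32.6% and 31.1% of all tested genes. Other CHD, NuRD and ISWI genes had the highest medians, 0.18 in controls and 0.16 in mutants, with Chd4, the main NuRD ATPase gene, at 735 and 724 CPM in replicate 3 of the controls and mutants and between 554 and 623 CPM in the other 4 libraries. Kmt2b, a paralog of Kmt2a, stood at 128 and 121 CPM in replicate 3 and between 99.4 and 112 CPM in the others. Kdm5c, an X-linked H3K4 demethylase gene of intellectual disability, ranged from 207 to 243 CPM in controls and 215 to 233 CPM in mutants (log2 fold change 0.02 ± 0.09 SE). These are values of single libraries and were not tested between replicates.

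In the fit of the 4 libraries of replicates 1 and 2, 3 genes passed the threshold, named here after their values were seen: Hist1h2ag, a replication-dependent histone gene, at 1.10 ± 0.15 (log2 fold change and SE; adjusted p = 0.0034, edgeR's quasi-likelihood test), and the pseudogenes Pisd-ps1 at 0.87 ± 0.11 (adjusted p = 0.0017) and Tmem181b-ps at 0.81 ± 0.11 (adjusted p = 0.0034). In the fit of all 6 libraries they did not pass.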
